A study of Brachypodium distachyon with 9 samples.

Results

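The most abundant long non-coding RNAs (lncRNAs) of droughted Brachypodium distachyon shoots were taken as the 150 lncRNA rows with the highest mean over the 9 library columns of the deposited median ratio normalized table. That table holds 3695 rows annotated as lncRNA, at 2028 loci, among 28454 rows in all. The 150 rows are annotated transcripts at 144 loci, since 4 loci supplied 10 of the rows. The rows were chosen by their level, so the level itself and the order that it gives are a description.

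Brachypodium distachyon is a small temperate grass that serves as a model for cereals. RNA was sequenced from whole shoots of the 21-3 line in 3 genotypes, with 3 biological replicates of each. The wild type was set against gf14h-1, a mutant in the gene of GF14h, and hdac19-2b, a mutant in the gene of HISTONE DEACETYLASE 19 (HDAC19). The 14-3-3 proteins, to which GF14h belongs, dock onto phosphorylated partners, and HDAC19 strips acetyl groups from histone tails. Both mutants were made by CRISPR/Cas9 in the 21-3 background, and each is a single allele, homozygous for an exon 1 change that gives a premature stop codon. All plants, the wild type included, had been without water for 15 days after 18 days of growth, were at the 5-leaf stage, and were harvested 3 h after dawn. In all genotypes, days had 14 h of light and 10 h of dark during growth, and 16 h and 8 h during the drought. The temperature was 20 °C in the light and 18 °C in the dark. No watered plants are among these samples, so the values describe genotypes under drought and no response to drought. Libraries came from poly(A)-selected RNA, so an lncRNA without a poly(A) tail was measured only as far as it passed that selection.

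An lncRNA is a transcript without a recognised protein-coding reading frame, and many are capped, spliced and polyadenylated like messenger RNAs. Plant lncRNAs with a known role include COOLAIR, an antisense transcript that takes part in silencing a flowering repressor of Arabidopsis in the cold. Others are the primary transcripts from which microRNAs or small nucleolar RNAs (snoRNAs) are cut. The 150 rows carry locus numbers and no functional names in the annotation, so their roles are not known here beyond what their positions show.

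Library totals ran from 3302835 counts in gf14h-1 replicate 3 to 36632994 in wild type replicate 3, and a floor of 3 counts corresponds to 0.908 and 0.0819 CPM in those libraries, where CPM is the count scaled to a common library size. Replicates of a genotype correlated across features at 0.824 to 0.940 (log2 CPM), lowest between gf14h-1 replicates 1 and 3. Results for gf14h-1 are given without its shallow replicate 3 where leaving it out changes them. As a check of the tissue, all 7 chloroplast photosynthesis genes looked for were found, with rbcL at 2390 to 6310 CPM.

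The 150 rows held 0.763% to 1.02% of the counts of a library and 49.4% to 59.6% of all its lncRNA counts. Their mean normalized values ran from 229 to 10300 with a median of 370, against a median of 10.5 over all lncRNA rows, and 19 rows were above 1000. On the scale used from here on, CPM with TMM scaling factors (a correction for differences in library makeup), the row means ran from 17.1 to 770 with a median of 27.6. Transcript lengths were not used here, so these levels are per transcript row and not per base. At the limit of the list stood LOC100821310, with a pair of identical rows at 230.6 normalized, and LOC100837873 at 229.5. Just outside were LOC100828347 at 228.5, LOC106866322 at 223.4 and LOC100829563 at 222.7.

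**Figure D1:**
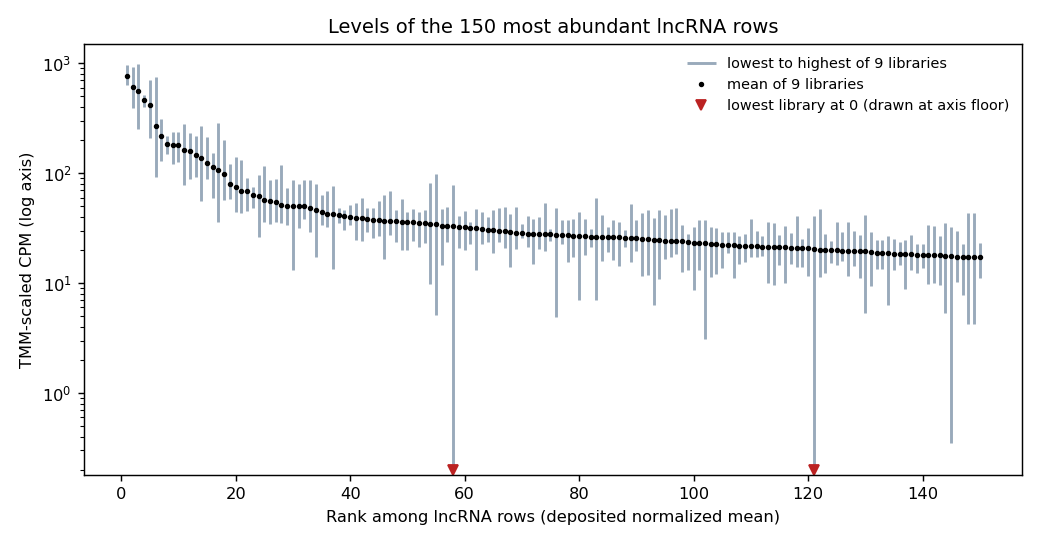
Each of the 150 lncRNA rows is drawn at its rank by the deposited normalized mean, with the mean TMM-scaled CPM of the 9 libraries (dot) and the lowest to the highest library (line) on a log axis. The means fall from 770 to about 17.1 CPM, most lines span a few-fold range, and the red triangles mark the 2 rows that were at 0 in some library.

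The 10 most abundant rows took 39.6% to 49.3% of the counts of all 150. LOC106865875 on chromosome 1 (67722049 to 67724123, plus strand) led with 666, 750 and 942 CPM in wild type replicates 1 to 3, 959, 891 and 708 CPM in gf14h-1, and 636, 666 and 715 CPM in hdac19-2b. Its libraries overlapped between all genotypes. LOC100826832 (chromosome 1, 28913735 to 28915640) ranged from 393 to 927 CPM, and LOC100824408 (chromosome 3, 12719543 to 12721533) from 251 to 996 CPM. Both had their highest value in gf14h-1 replicate 3, and both had low values in wild type replicate 2, gf14h-1 replicate 1 and hdac19-2b replicate 3.

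LOC100822934 (chromosome 1, 44317204 to 44318367, minus strand) was the steadiest of the 148 rows with a count in every library, at 505, 510 and 455 CPM (wild type), 468, 446 and 441 (gf14h-1) and 397, 497 and 435 (hdac19-2b). Its highest library was 1.28 times its lowest. LOC100830793 (chromosome 5, 2306782 to 2308186) stood at the other end among the 10, with 308, 170 and 246 CPM (wild type), 99.8, 332 and 92.4 (gf14h-1) and 745, 212 and 226 (hdac19-2b). The value of 745 CPM came from hdac19-2b replicate 1 alone, and its other libraries lay within the range of the wild type and gf14h-1 libraries. LOC100836930 on chromosome 1 kept between 151 and 217 CPM in all 9 libraries.

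Over the 148 rows with a count in every library, the highest library was a median of 2.43 times the lowest, and the ratio ran from 1.28 to 92.6. It was under 2 in 43 rows and over 5 in 16. Among replicates, the median coefficient of variation of the 150 rows was 21.4% in wild type, 33.7% in gf14h-1 and 19.3% in hdac19-2b. Over all 23898 features tested these medians were 22.3%, 39.8% and 21.0%, and over the 2072 tested lncRNA rows outside the 150, which hold fewer counts, they were 50.6%, 82.2% and 51.2%. A coefficient above 50% was seen for 9 rows in wild type, 36 in gf14h-1 and 8 in hdac19-2b. The wider spread of the gf14h-1 libraries was thus shared by the abundant lncRNAs and by all features tested. Without replicate 3, the median absolute log2 difference of the 150 rows between gf14h-1 replicates 1 and 2 was 0.439, against 0.813 and 0.511 for the pairs with replicate 3. The pairs of wild type libraries gave 0.288 to 0.363.

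**Figure D2:**
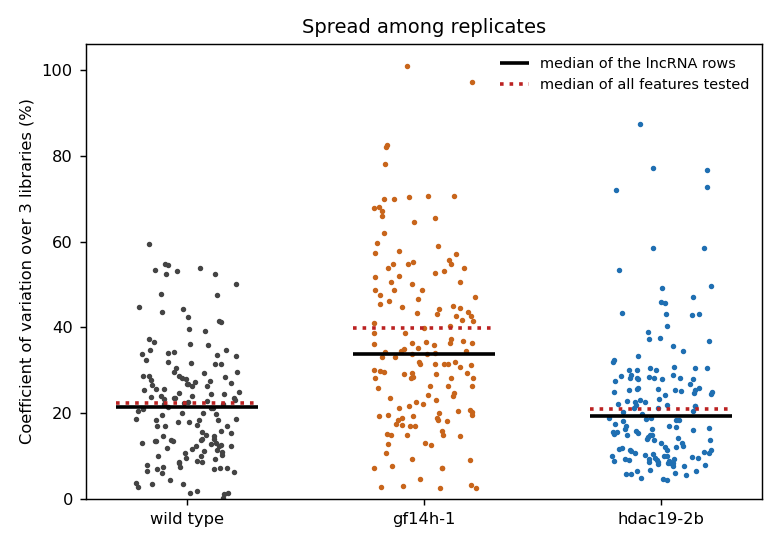
Coefficient of variation over the 3 libraries of a genotype, in percent, for each of the 150 lncRNA rows (points, spread sideways at random; a row at 0 in all 3 libraries has none), with the median of the lncRNA rows (solid line) and of all features tested (dotted line). The gf14h-1 points reach higher than the others, and in each genotype the lncRNA median lies just under that of all features.

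The wild type libraries were closest to each other for LOC100822770 (chromosome 3, 2187819 to 2190796), at 34.8, 34.7 and 34.8 CPM. LOC104583637, LOC104583649, LOC104583776 and LOC100835268 also had a wild type coefficient of variation under 2%. LOC100822770 stood at 36.7, 26.7 and 55.7 CPM in gf14h-1, the last from the shallow replicate 3. It was picked for its low wild type spread, so a wider spread in another genotype was likely from the choice alone. The largest wild type coefficients belonged to LOC100840220 (59.4%), LOC104585280 (54.7%), LOC112270054 (54.5%), LOC112271563 (53.9%) and LOC100823744 (53.4%). For LOC100840220 and LOC104585280, whose loci have several transcript rows, the spread was that of the row. Summed over all rows of the locus, wild type stood at 34.4 ± 7.69 and 48.1 ± 9.67 CPM (SD, n = 3).

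Where a locus has several transcript rows, the rows could vary more than their sum. Of the 144 loci, 36 have more than 1 row in the table, and between 38.7% and 43.3% of the values of the 150 rows in a library were fractional, as estimated counts can be where reads are shared between features. The 42 rows from such loci had median coefficients of variation of 23.7%, 40.8% and 23.6% in wild type, gf14h-1 and hdac19-2b, and the 108 rows that are alone at their locus 20.2%, 31.1% and 18.6%. The LOC100840220 row (chromosome 2, 48943216 to 48945249) stood at 0.353 CPM in gf14h-1 replicate 3, while both rows of its locus together gave 36.3 CPM there, within the range of 18.1 to 42.1 CPM of the 9 libraries. LOC100834692 on chromosome 1 has 5 rows, of which 3 are among the 150. One of these was at 0 in gf14h-1 replicate 3, yet the 5 rows summed to 70.2 CPM there, and the sums of the 9 libraries ran from 64.8 to 139 CPM. The 6 rows of LOC104584631 on chromosome 4, also with 3 among the 150, summed to 64.6 to 88.8 CPM in the 9 libraries. These loci were chosen after their values were seen. Of the 42 rows at the 36 loci, 32 had a larger ratio of highest to lowest library than the sum of their locus, 5 a smaller and 3 the same one, and 2 were at 0 in a library.

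The 150 rows lay on chromosomes 1 to 5 with 50, 24, 34, 23 and 19 rows, and 77 were on the plus and 73 on the minus strand. Their genomic spans ran from 421 to 19551 bases with a median of 2420. Of the 150, 91 lay more than 1 kb from any protein-coding gene and 44 within 1 kb without overlap. Another 9 overlapped a protein-coding gene on the opposite strand, 2 overlapped one on the same strand, and 4 overlapped a feature whose strand was not clear. Of the 3545 other lncRNA rows, 1898 lay more than 1 kb away, 873 within 1 kb, and 601, 75 and 98 overlapped on the opposite, the same or an unclear strand. Overlap on the opposite strand was thus a smaller part of the abundant rows than of the others. Whether the counting used strand is not given in the sources used here, so reads from the shared stretches cannot be assigned to a strand.

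Small RNA genes lay within or across the ends of 7 of the 150 rows, against 67 of the 3545 other lncRNA rows. SnoRNAs guide chemical modification of ribosomal RNA. LOC104581836 holds 5 snoRNA genes in its span on chromosome 1 (4606203 to 4608578, minus strand), and LOC100822675, which lies 16456 bases away on the plus strand (4588340 to 4589747), holds 4. LOC100827003 (chromosome 1, 57168039 to 57169241) holds 2, and these 3 rows are among the 10 most abundant. LOC106865927 (chromosome 1, 28566951 to 28569594) and LOC112271769 (chromosome 3, 51327999 to 51330377) hold 9 each. LOC100833894 on chromosome 3 spans the microRNA gene MIR156C, and LOC100823770 overlaps a gene of the phenylalanine tRNA.

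LOC104581836 stood at 445, 242 and 497 CPM (wild type), 210, 337 and 525 (gf14h-1) and 710, 548 and 255 (hdac19-2b). LOC100822675 stood at 180, 121 and 197 CPM (wild type), 131, 199 and 238 (gf14h-1) and 235, 206 and 125 (hdac19-2b). LOC100827003 stood at 310, 129 and 217 CPM (wild type), 140, 195 and 265 (gf14h-1) and 267, 262 and 194 (hdac19-2b). All 3 had their lowest values in the same 3 libraries, wild type replicate 2, gf14h-1 replicate 1 and hdac19-2b replicate 3, 1 of each genotype. All genotypes overlapped. This order was not particular to snoRNA hosts. The whole list of abundant lncRNA rows, these hosts included, held its smallest shares of library counts there, at 0.763%, 0.805% and 0.801% in that order. LOC100826832 and LOC100824408, which hold no snoRNA gene, were also lowest in those libraries.

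The hosts of 9 snoRNA genes followed another order of libraries. LOC106865927 stood at 31.8, 29.5 and 37.6 CPM (wild type), 40.6, 39.1 and 20.1 (gf14h-1) and 44.8, 43.2 and 36.1 (hdac19-2b). LOC112271769 stood at 27.1, 27.7 and 36.2 CPM (wild type), 31.1, 31.1 and 19.8 (gf14h-1) and 45.4, 36.2 and 36.9 (hdac19-2b). Both were lowest in gf14h-1 replicate 3, and both were highest in hdac19-2b replicate 1. The shallow gf14h-1 replicate 3 was the lowest library for 19.3% of the 150 rows, beside 29.0% of all features tested. The snoRNA features that have a row of their own, which lie in 4 of the 5 hosts, reached at most 5.15 CPM in any library, from RNA selected by its poly(A) tail.

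**Figure D3:**
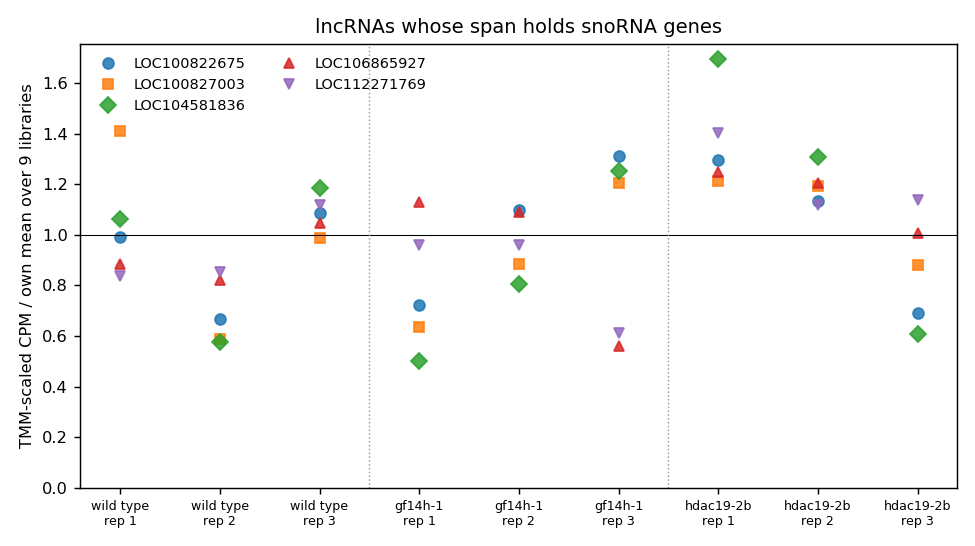
TMM-scaled CPM of the 5 lncRNA rows that hold snoRNA genes, each divided by its own mean over the 9 libraries, by library. LOC100822675, LOC100827003 and LOC104581836 are together low in wild type replicate 2, gf14h-1 replicate 1 and hdac19-2b replicate 3, whereas LOC106865927 and LOC112271769 are lowest in gf14h-1 replicate 3.

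Whether the abundant lncRNAs differ in the GF14h mutant in droughted shoots was asked by setting gf14h-1 against wild type. Each mutant is a single allele. The targeted gene and any other difference between an edited line and the wild type therefore cannot be told apart. In the edgeR fit a single row, LOC112268938 on chromosome 1, was called higher in gf14h-1, and 0 rows were called lower. LOC104582629 and LOC104584796 had the largest negative fold changes with separate libraries, and LOC100840969 and LOC106866594 the largest positive ones after LOC112268938, but none of these 4 passed in edgeR. The edgeR quasi-likelihood fit, Benjamini-Hochberg adjusted over all 23898 features, called 1 of the 150 at an adjusted p under 0.05, beside 0.146% of all features tested. At an unadjusted p under 0.05 there were 12 rows, 9 higher and 3 lower, or 8.0%, beside 7.56% of all features. The libraries of the genotypes did not overlap for 17 rows, 13 higher and 4 lower, or 11.3%, beside 11.9% of all features (5.18% higher and 6.68% lower). The totals are near those of all features, and more of the separate rows were higher than lower. This split was not counted without gf14h-1 replicate 3, the highest library for 42.0% of the 150 rows, beside 23.0% of all features. Without gf14h-1 replicate 3 edgeR called 2 rows, beside 0.206% of all features. The DESeq2 Wald test called 5 rows, 3 higher and 2 lower, beside 1.32% of all features, and limma-trend 1, higher, beside 0.163%. In whole shoots, fewer cells of a type and less RNA per cell cannot be told apart.

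LOC112268938 lies at 17317420 to 17318853 on the plus strand of chromosome 1, 1120 bases from the protein-coding locus LOC100841585. Its row ranked 58 and was at 0 counts in all 3 wild type libraries, with 31.3, 29.2 and 69.9 CPM in gf14h-1 and 78.0, 35.1 and 53.3 CPM in hdac19-2b. It therefore entered the list through the mutants, and every mutant library was above every wild type library. The mean that ranked the rows took in more mutant than wild type libraries, so it favoured a row high in both mutants. That this row is on the list, and its direction, are thus no trait of the abundant lncRNAs. Its means were 43.5 ± 22.9 CPM in gf14h-1 and 55.5 ± 21.5 CPM in hdac19-2b (SD, n = 3). With the libraries of a genotype pooled, the row stood at 33.4 CPM in gf14h-1 and 58.0 CPM in hdac19-2b. Against a floor of 3 counts over the pooled wild type libraries (0.0485 CPM), these values were at least 689-fold and at least 1197-fold higher. That floor covers counting error in this row and not the division of reads between the rows of the locus. The adjusted p were 0.00255 and 0.00187 by the edgeR quasi-likelihood fit (Benjamini-Hochberg). Over the 16 alternative settings that keep the row, DESeq2 and limma among them, adjusted p ran from 1.02e-17 to 0.0247 in gf14h-1 and from 2.53e-19 to 0.0103 in hdac19-2b, so the row passed under each.

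The 0 in wild type belonged to that transcript row and not to the locus. The other annotated transcript of LOC112268938 has the same outer coordinates, is not among the 150, and had 15, 4 and 23 counts in wild type replicates 1 to 3. It had 1, 138 and 13 counts in gf14h-1 and 201, 250 and 148 in hdac19-2b. Both rows together gave 1.07, 0.328 and 0.644 CPM (wild type), 31.4, 38.2 and 74.4 (gf14h-1) and 89.6, 56.2 and 62.7 (hdac19-2b). The locus was thus detected at a low level in every wild type library and remained separate from both mutants.

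For the locus as a whole, the ratio of pooled counts was 55.3 in gf14h-1 (95% exact counting interval 40.7 to 77.1, from 1379 and 42 counts). It was 105 in hdac19-2b (77.6 to 146, from 3206 and 42 counts). The log2 fold changes of the summed counts were 6.10 (SE 0.47) and 6.65 (SE 0.47), with adjusted p of 0.000413 and 9.05e-05 by the edgeR quasi-likelihood fit (Benjamini-Hochberg). The intervals cover counting error only. The comparisons share the wild type libraries, so the values of the mutants are not independent of each other. Between the mutants the member row differed by a log2 fold change of −0.38 (SE 0.40), with an adjusted p of 0.857 by the edgeR quasi-likelihood fit (Benjamini-Hochberg).

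The genes around LOC112268938 did not pass the same test. LOC100841585 measured 11.5 ± 0.963 CPM in wild type, 17.4 ± 5.45 CPM in gf14h-1 and 16.8 ± 1.91 CPM in hdac19-2b (SD, n = 3). Within 50000 bases on either side, 9 other features were tested, and edgeR called 0 in either mutant. Over all features edgeR called 0.146% in gf14h-1 and 0.272% in hdac19-2b, so 0 of 9 does not set these genes apart. At an unadjusted p under 0.05 there were 2 in gf14h-1 and 1 in hdac19-2b, beside 7.56% and 7.19% of all features. DESeq2 called 1 of the 9 in gf14h-1 and 0 in hdac19-2b, beside 1.32% and 2.24%. Limma-trend called 0 in both, beside 0.163% and 0.335%. The log2 fold changes of the 9 ran from −1.11 to 0.83 in gf14h-1 and from −1.91 to 0.67 in hdac19-2b, with lowest adjusted p of 0.248 and 0.515 by the edgeR quasi-likelihood fit (Benjamini-Hochberg). The lowest in gf14h-1 belonged to LOC100828668, at 193 ± 31.3 CPM in wild type, 339 ± 14.5 in gf14h-1 and 202 ± 25.2 in hdac19-2b (SD, n = 3).

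**Figure D4:**
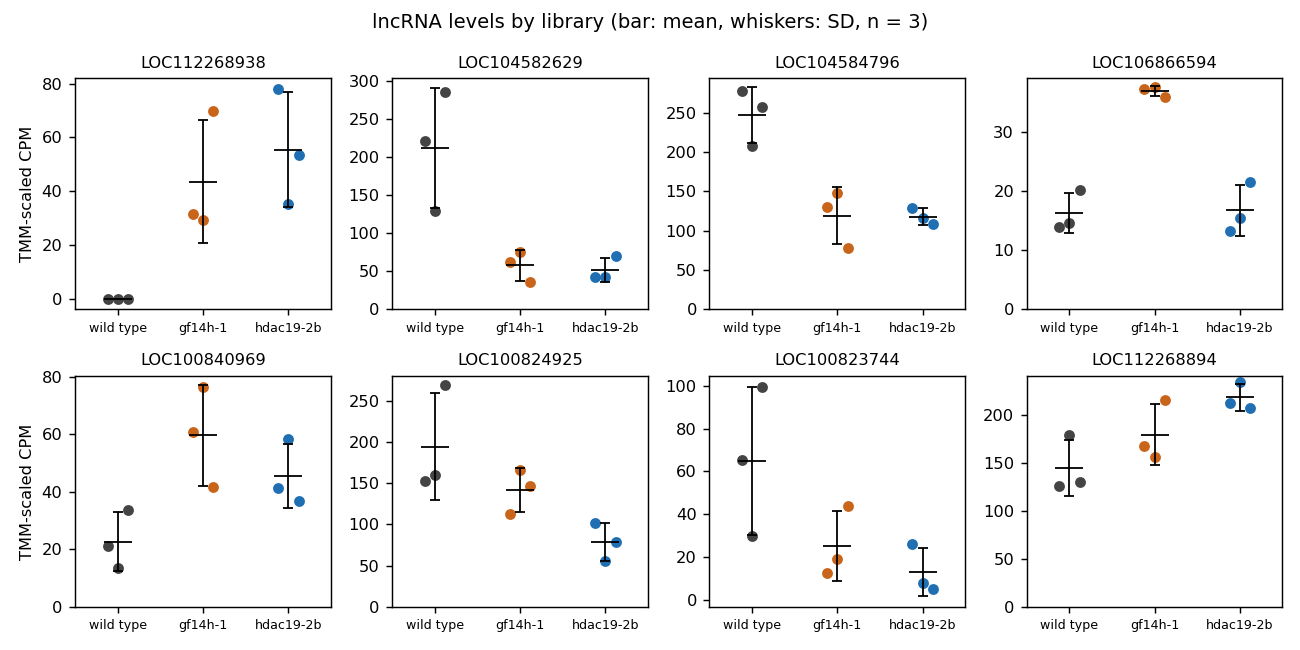
TMM-scaled CPM of 8 lncRNA rows in each library (points), with the mean (horizontal bar) and SD (whiskers, n = 3) of each genotype, in panels with separate axes. LOC112268938 is at 0 in wild type for the plotted transcript row, LOC104582629 and LOC104584796 are lower in all mutant libraries than in all wild type libraries, and LOC106866594 is higher in all gf14h-1 libraries than in the others.

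LOC104582629 on chromosome 2 (18567334 to 18576779, plus strand) had 221, 129 and 286 CPM (wild type), 61.5, 75.3 and 35.6 (gf14h-1) and 42.6, 41.9 and 69.4 (hdac19-2b). All mutant libraries lay under all wild type libraries. The log2 fold changes were −1.87 (SE 0.36) in gf14h-1 and −2.05 (SE 0.36) in hdac19-2b, with adjusted p of 0.103 and 0.0527 by the edgeR quasi-likelihood fit (Benjamini-Hochberg), so neither passed. LOC104584796 on chromosome 4 (46991171 to 46992884, plus strand) had 278, 208 and 257 CPM (wild type), 130, 148 and 78.0 (gf14h-1) and 129, 116 and 108 (hdac19-2b). Here too the wild type libraries stood apart, with log2 fold changes of −1.06 (SE 0.25) and −1.08 (SE 0.25) and adjusted p of 0.219 and 0.138 by the edgeR quasi-likelihood fit (Benjamini-Hochberg). The DESeq2 Wald test called both rows in both mutants. In hdac19-2b, LOC104582629 passed under 7 of 17 alternative settings, with adjusted p from 7.4e-06 to 0.324 by edgeR, DESeq2 or limma.

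LOC106866594 on chromosome 4 (13539869 to 13542280, minus strand) had 14.0, 14.6 and 20.2 CPM (wild type), 37.3, 37.7 and 36.0 (gf14h-1) and 13.2, 15.5 and 21.6 (hdac19-2b). The gf14h-1 libraries lay above all others. The log2 fold change was 1.18 (SE 0.25) against wild type, with an adjusted p of 0.151 by the edgeR quasi-likelihood fit (Benjamini-Hochberg). Summed with the other row of its locus the value was 0.68 (SE 0.27), with an adjusted p of 0.523 in the same edgeR test with Benjamini-Hochberg. LOC100840969 on chromosome 1 (74535786 to 74536525) had 21.0, 13.5 and 33.7 CPM (wild type), 60.9, 76.4 and 41.6 (gf14h-1) and 41.3, 58.3 and 37.0 (hdac19-2b). Its log2 fold changes were 1.39 (SE 0.35) and 0.99 (SE 0.34), with adjusted p of 0.244 and 0.426 by the edgeR quasi-likelihood fit (Benjamini-Hochberg). The DESeq2 Wald test called both LOC106866594 and LOC100840969 in gf14h-1.

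Another 3 rows were taken by their low unadjusted p in gf14h-1, and all 3 had gf14h-1 libraries above all wild type libraries. LOC112270828, LOC100846449 and LOC106865583 had log2 fold changes of 0.51 (SE 0.21), 0.77 (SE 0.24) and 0.78 (SE 0.27). Their adjusted p were 0.598, 0.415 and 0.486 by the edgeR quasi-likelihood fit (Benjamini-Hochberg). For LOC100846449 the 3 rows of its locus summed to 22.1, 38.1 and 30.7 CPM in wild type and 36.3, 40.3 and 38.5 CPM in gf14h-1, which overlap. Its summed log2 fold change was 0.35 (SE 0.23), with an adjusted p of 0.813 by the edgeR quasi-likelihood fit (Benjamini-Hochberg). LOC112270828 shares 222 of its 3236 bases with a protein-coding gene on the opposite strand.

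The comparison for the MIR156C host turned on 1 library. The microRNA miR156 holds back the change from juvenile to adult growth in Arabidopsis and maize by acting on SPL transcription factors. LOC100833894 (chromosome 3, 4340496 to 4350710, minus strand) had 10.3, 13.8 and 14.3 CPM (wild type), 30.8, 35.5 and 5.29 (gf14h-1) and 17.7, 15.7 and 15.2 (hdac19-2b). In gf14h-1, replicates 1 and 2 lay above all wild type libraries and replicate 3, the shallowest library, below them all. Over all 3 replicates the log2 fold change was 0.94 (SE 0.48), with an adjusted p of 0.739 by the edgeR quasi-likelihood fit (Benjamini-Hochberg). Without gf14h-1 replicate 3 it was 1.37 (SE 0.21), with an adjusted p of 0.0484 in that edgeR test with Benjamini-Hochberg. This was the one call among 16 alternative settings that keep the row, whose adjusted p ran from 0.0484 to 1.0 by edgeR, DESeq2 or limma. Summed with the other row of the locus, gf14h-1 stood at 31.0, 36.3 and 10.9 CPM and the wild type at 10.7, 14.1 and 14.8 CPM, so that replicate 3 then lay among the wild type libraries. The summed log2 fold change was 1.02 (SE 0.36), with an adjusted p of 0.454 by the edgeR quasi-likelihood fit (Benjamini-Hochberg). The row was picked out after its values were seen. MIR156C itself (4346568 to 4346713) has a row that reached at most 1.46 CPM in any library.

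Over the 150 rows the median log2 fold change in gf14h-1 was 0.13, beside −0.004 over all features tested. It was 0.02 without gf14h-1 replicate 3 and 0.21 without gf14h-1 replicate 1. The gf14h-1 replicate 3 library was the highest of the 9 for 63 of the 150 rows, or 42.0%, beside 23.0% of all features tested.

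Differences in the HDAC19 mutant were asked by setting hdac19-2b against wild type, with the same limit of a single allele. LOC112268938 was again the one row that passed in edgeR, higher in the mutant as given above, and edgeR called 0 rows lower. LOC100823744, LOC104582629, LOC100824925 and LOC104584796 had log2 fold changes of −1 or below without passing in edgeR. The edgeR quasi-likelihood fit (Benjamini-Hochberg) called 1 of the 150, beside 0.272% of all features tested. At an unadjusted p under 0.05 there were 10 rows, 5 higher and 5 lower, or 6.67%, beside 7.19% of all features. The libraries did not overlap for 18 rows, 10 higher and 8 lower, beside 16.8% of all features (8.35% higher and 8.48% lower). Without gf14h-1 replicate 3 edgeR called 3 rows, with LOC104582629 and LOC104584796 lower, beside 0.767% of all features. Without wild type replicate 2 it called 2, with LOC104582629 lower, beside 0.367%. The DESeq2 Wald test called 5, 1 higher and 4 lower, beside 2.24% of all features, and limma-trend 2, 1 higher and LOC104582629 lower, beside 0.335%. The median log2 fold change of the 150 was 0.04, beside 0.02 over all features.

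LOC100824925 on chromosome 3 (45453314 to 45454362, plus strand) had 153, 160 and 269 CPM (wild type), 113, 166 and 146 (gf14h-1) and 102, 56.1 and 78.9 (hdac19-2b). The hdac19-2b libraries lay under all others. The log2 fold change against wild type was −1.30 (SE 0.30), with an adjusted p of 0.127 by the edgeR quasi-likelihood fit (Benjamini-Hochberg). LOC100823744 on chromosome 1 (42983391 to 42984137, minus strand) had 65.5, 30.0 and 99.3 CPM (wild type), 12.7, 18.9 and 43.7 (gf14h-1) and 25.9, 7.77 and 5.14 (hdac19-2b). The hdac19-2b libraries lay under all wild type libraries and overlapped gf14h-1. Its log2 fold change was −2.32 (SE 0.66), with an adjusted p of 0.245 by the edgeR quasi-likelihood fit (Benjamini-Hochberg). Without hdac19-2b replicate 1 the fold change of LOC100823744 was −3.34, and over all alternatives it ran from −3.34 to −1.88. The DESeq2 Wald test called both LOC100824925 and LOC100823744 in hdac19-2b.

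LOC112268894 on chromosome 4 (33407 to 37093, plus strand), among the 10 most abundant, had 126, 179 and 130 CPM (wild type), 168, 156 and 216 (gf14h-1) and 213, 235 and 208 (hdac19-2b). The hdac19-2b libraries lay above all wild type libraries, with a log2 fold change of 0.59 (SE 0.22). LOC100834062 on chromosome 1 had 22.1, 34.1 and 20.8 CPM (wild type), 39.4, 30.7 and 27.5 (gf14h-1) and 35.7, 40.4 and 41.2 (hdac19-2b), a log2 fold change of 0.61 (SE 0.24). Adjusted p were 0.484 and 0.573 by the edgeR quasi-likelihood fit (Benjamini-Hochberg), so neither passed.

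**Figure D5:**
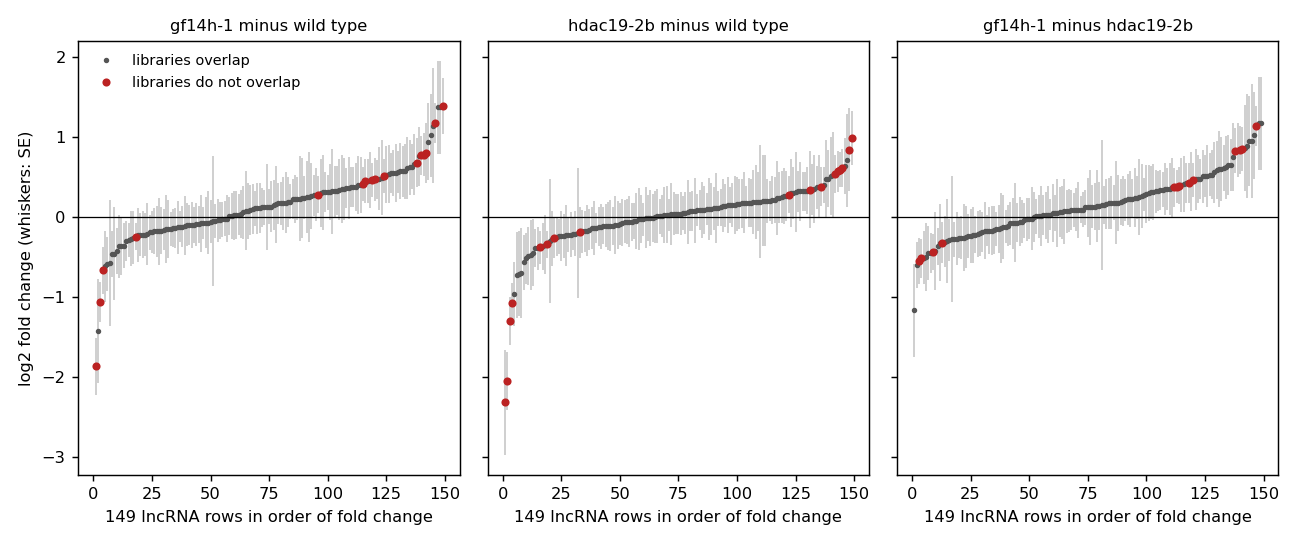
Log2 fold changes (points) with their SE (whiskers) of 149 lncRNA rows in each comparison, sorted by size, with rows whose libraries do not overlap between the genotypes in red. LOC112268938, whose fitted fold change against a wild type of 0 counts has no fixed size, is left out, and most of the other rows lie within 1 log2 unit of 0.

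LOC104583649 (chromosome 3, 27443367 to 27445298), close among its wild type libraries, lies over its whole span across a protein-coding gene on the opposite strand. It had 47.1, 48.4 and 47.4 CPM (wild type), 41.3, 39.2 and 39.9 (gf14h-1) and 39.7, 37.9 and 35.5 (hdac19-2b). All mutant libraries lay under all wild type libraries, which both comparisons share. The row was named for its low wild type spread, and a narrow wild type range makes separate libraries easier to get. Neither edgeR nor DESeq2 called it in either mutant.

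Between gf14h-1 and hdac19-2b, a direct comparison of the mutants, the edgeR quasi-likelihood fit (Benjamini-Hochberg) called 0 of the 150 rows, beside 0.0167% of all features tested. At an unadjusted p under 0.05 there were 5 rows, all higher in gf14h-1, or 3.33%, beside 9.03% of all features. The DESeq2 Wald test called 1 row, LOC106866594, beside 1.11% of all features, and limma-trend 0, beside 0.0209%. The libraries did not overlap for 13 rows, 9 higher and 4 lower in gf14h-1, or 8.67%, beside 14.0% of all features (6.22% higher and 7.82% lower). The share of rows that separated the mutants was thus under that of all features.

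The 5 rows were LOC106866594, LOC100841960, LOC100845978, LOC100824925 and LOC100828816. LOC100841960 on chromosome 3 had 48.4, 86.2 and 85.4 CPM in gf14h-1 and 45.7, 41.6 and 34.5 CPM in hdac19-2b, and LOC100845978 on chromosome 2 had 57.1, 66.2 and 80.4 CPM and 39.4, 43.0 and 31.4 CPM. Both were separate between the mutants, while the wild type libraries, at 42.7 to 67.8 and 32.5 to 63.5 CPM, overlapped each of them. LOC100828816 had 42.0, 69.4 and 117 CPM in gf14h-1 and 39.3, 36.1 and 51.2 CPM in hdac19-2b, which overlap. The log2 fold changes of the 5, in the order named, were 1.14, 0.85, 0.83, 0.84 and 0.84, with SE of 0.25, 0.27, 0.28, 0.30 and 0.34. Their adjusted p were 0.297, 0.414, 0.437, 0.447 and 0.495 by the edgeR quasi-likelihood fit (Benjamini-Hochberg). Summed with the other row of its locus, LOC106866594 had 0.38 (SE 0.27) and an adjusted p of 0.706 in that edgeR fit.

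The nearest protein-coding genes of the lncRNAs were compared in the same way. For 114 of the 150 rows the nearest protein-coding feature was tested, at 110 genes, and the edgeR quasi-likelihood fit (Benjamini-Hochberg) called 0 of them in each comparison. Over all features edgeR called 0.146% in gf14h-1 against wild type, 0.272% in hdac19-2b against wild type and 0.0167% between the mutants. At such shares, 0 calls among 110 genes does not set the neighbours apart. At an unadjusted p under 0.05 there were 8 genes in gf14h-1 against wild type, 12 in hdac19-2b against wild type and 7 between the mutants. Over all features tested the shares were 7.56%, 7.19% and 9.03%. DESeq2 called 1, 0 and 2 of the 110 in that order, beside 1.32%, 2.24% and 1.11% of all features. Limma-trend called 0 in each, beside 0.163%, 0.335% and 0.0209%. The lncRNA and its neighbour had a fold change of the same sign in 63, 54 and 49 of the 114 cases for gf14h-1 against wild type, hdac19-2b against wild type and gf14h-1 against hdac19-2b. Pearson's r across these cases was 0.08, 0.09 and −0.05, a description over pairs measured in the same libraries.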

How the data were processed

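The authors deposited values that are expected counts, that is, estimated counts, per RefSeq gene or non-coding transcript, fractional in part and rounded here, where the design had assumed whole counts. The median ratio normalized signal table that the authors deposited, which carries the annotation, chose the 150 rows. Scaling each of its columns by a size factor recovered reads that were whole (tolerance 0.1) in 99.93% or more of values, used as an alternative. Its deposited feature length is a genomic span and scaled no level. Per the submitters' processing notes, the tools included Partek, FastQC 0.11.9, HISAT2 and DESeq2. The role of each, the counter and its strand setting are not stated in what was used here.

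Library totals ran from 3302835 to 36632994 counts. A genotype term was fitted to all 9 libraries in edgeR 4.0.16 (R 4.3.3), with TMM scaling, the default expression filter (23898 features kept, all 150 rows included) and quasi-likelihood tests. P-values were Benjamini-Hochberg adjusted over all features, with 0.05 as the threshold. An SE is the size of the log2 fold change over the square root of F. Alternatives were DESeq2 1.42.0, limma 3.58.1 (limma-trend), RLE scaling, no filter, the 6 libraries compared, a replicate block and leaving out each library. Counts summed per locus and ranking per base of span were added after seeing the data. Replicates all differed by more than sampling noise, with a chi-square of 18.0 or more for each degree of freedom.

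Named rows were those called, the 8 with the lowest p against wild type and 5 between mutants, the 10 most abundant, the 5 most and 5 least variable in wild type, those at the limit of the list, and those at 0 in a genotype. The members and lists were chosen with earlier results of these data known. Coordinates are 1-based on Brachypodium_distachyon_v3.0, and 98.5% of gene features have the start that its RefSeq table gives. No source used here ties GF14h or HDAC19 to a locus, so the transcripts of the targeted genes are not analysed here. Floors of 3 counts and 95% intervals cover counting error only.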

Additional observations from a re-analysis of the deposited data

How the results depend on the processing

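In gf14h-1 against wild type, 1 of the 150 rows was called. The count was 5 with the DESeq2 Wald test (beside 1.32% of all features), and 1 to 2 when each library was left out, the 2 without gf14h-1 replicate 3 (0.206%). In hdac19-2b against wild type, 1 row was called. The count was 5 with DESeq2 (beside 2.24%), 3 with only the 6 libraries compared (1.02%), 2 with limma-trend (0.335%), 2 with no expression filter (0.287%) and 2 with counts summed per locus (0.631%), against 0.272% at first. Leaving out each library gave 1 to 3, with 3 without gf14h-1 replicate 3 (0.767%) and 2 without wild type replicate 2 (0.367%). Between the mutants the count was 0, and 1 with DESeq2 (beside 1.11%). The causes were not tested. All other alternatives gave the first counts. The replicate block gave 1, 1 and 0 calls in the 3 comparisons. Correlations of deviations were −0.136 to 0.0204 between same-numbered libraries and −0.14 to 0.209 between differently numbered ones of different genotypes. No shared effect of the replicate number was thus seen, which cannot tell whether same-numbered samples were handled together. Of 22 fold changes of named rows, each under 17 alternatives, 0 reversed. The LOC112268938 row passed in both mutants under the 16 that keep it. The sum of its locus was fitted only in edgeR with all 9 libraries, and passed there in both mutants. Of the 150 rows, 142 remained when ranked by the median, 144 to 149 without 1 library, 150 by TMM-scaled CPM and 109 per base of genomic span. Ranking per base of transcript was not run, for want of transcript lengths. Depth limits gf14h-1 replicate 3 most.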
